A study of Mus musculus with 4 samples.

Results

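Arrestins are adaptor proteins that bind the cytoplasmic side of membrane proteins and route them into the cell. The genes described here are 7 members of this superfamily, Txnip, Arrdc1, Arrdc2, Arrdc3, Arrdc4, Arrb1 and Arrb2, taken by platform gene symbol from 19938 named genes. Each had 1 probe set, so no averaging of probe sets entered their values. They were put together with their genotype differences already known, so those differences are given as a description without a test.

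Total RNA of mouse liver was hybridized to 4 Affymetrix arrays of the Mouse Gene 1.0 ST design. The labels give WT SIRT6 mice at 2 and at 8 months of age, and mice carrying SIRT6Co/Co with Alb-Cre (labelled KO) at the same ages. Alb-Cre expresses the recombinase Cre from the hepatocyte-active albumin promoter, so liver cells of other types are expected to keep the allele. SIRT6 removes acyl groups from histones and other proteins and uses NAD to do so. Each group is 1 array that held RNA combined from 3 pairs of mice, and the spread between animals or pools was not measured. The sources used here give neither strain, sex nor feeding state, and do not say whether the WT SIRT6 mice carried Alb-Cre or an unrecombined conditional allele.

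Values are on the log2 scale throughout, so a difference of 1 is 2-fold. Sirt6 itself read 4.55 and 4.50 in WT and 4.54 and 4.46 in KO at 2 and 8 months, so its probe set did not separate the labels, and which exons it covers is not known here. The directions below therefore rest on the labels. Of 9 hepatocyte markers measured all passed the expression filter, Alb (albumin) read 12.54 and 12.56 in WT and 12.60 and 12.52 in KO, and Arg1 fell in KO (limma adjusted p 0.018). The call of Arg1 was lost without the filter (adjusted p 0.055) and without the intensity trend (adjusted p 0.12), and Apoa1 and Cps1 also fell under median centring (adjusted p 0.0046 and 0.0045), under cyclic loess and with the filter at the 60th percentile. Comparisons used the 11963 genes whose 4-array mean was above 3.34, which is the 40th percentile. Of the members, 6 passed and Arrdc1 did not.

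The alpha-arrestins Txnip and Arrdc1 to Arrdc4 recruit ubiquitin ligases of the Nedd4 family to transporters and receptors, which are then internalised and degraded. Txnip also binds thioredoxin, restrains glucose uptake through the glucose transporters, and is a classic glucose-responsive gene driven by the Mlx partners MondoA and ChREBP. The beta-arrestins Arrb1 and Arrb2 bind phosphorylated G protein-coupled receptors, end their coupling to G proteins and link them to clathrin.

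The letters upstream of 4 alpha-arrestin genes are shown because 3 of these genes were lower together in KO while the fourth, Arrdc4, a glucose-responsive relative of Txnip, was not. They are the 250 bases before the annotated start on the strand of the gene, from RefSeq on GRCm38.p6. Capitals mark CCAAT boxes (CCAAT), E-boxes (CACGTG), pairs of E-box-like units spaced by 5 bases (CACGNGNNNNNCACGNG) and FoxO-type sites (GTAAACA), on either strand. The regions are chr3:96557707-96557956 on the plus strand for Txnip, chr7:68749239-68749488 on the minus strand for Arrdc4, chr13:80883134-80883383 on the plus strand for Arrdc3 and chr8:70839721-70839970 on the minus strand for Arrdc2.
Txnip: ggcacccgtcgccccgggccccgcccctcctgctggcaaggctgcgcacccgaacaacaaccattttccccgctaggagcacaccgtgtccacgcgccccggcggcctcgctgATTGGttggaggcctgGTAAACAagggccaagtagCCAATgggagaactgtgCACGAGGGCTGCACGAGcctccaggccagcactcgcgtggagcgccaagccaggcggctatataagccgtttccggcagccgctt
Arrdc4: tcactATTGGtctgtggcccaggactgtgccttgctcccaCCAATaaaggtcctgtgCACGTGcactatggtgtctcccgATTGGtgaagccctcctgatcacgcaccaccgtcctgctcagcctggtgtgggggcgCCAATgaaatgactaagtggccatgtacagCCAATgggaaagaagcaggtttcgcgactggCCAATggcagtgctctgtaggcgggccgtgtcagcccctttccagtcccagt
Arrdc3: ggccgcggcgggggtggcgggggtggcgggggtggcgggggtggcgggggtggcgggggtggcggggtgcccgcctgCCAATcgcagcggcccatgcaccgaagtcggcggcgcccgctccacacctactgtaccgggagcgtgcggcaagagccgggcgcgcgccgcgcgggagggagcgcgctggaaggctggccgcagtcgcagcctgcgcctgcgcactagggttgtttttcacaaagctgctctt
Arrdc2: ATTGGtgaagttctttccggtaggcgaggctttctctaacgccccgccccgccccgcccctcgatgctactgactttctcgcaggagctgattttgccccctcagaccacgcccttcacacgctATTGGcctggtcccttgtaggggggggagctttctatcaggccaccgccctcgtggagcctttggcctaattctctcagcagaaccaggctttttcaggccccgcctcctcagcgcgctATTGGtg

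The paired E-box-like motif resembles a carbohydrate response element, but only the spelling given above was searched. Pairs with another spacing, or with the second unit reversed, were not searched. This motif was found upstream of Txnip and of none of the other 4 members with an entry. It reads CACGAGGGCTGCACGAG and lies 85 to 69 bases before the start. Of 32851 promoter entries, 15 held this pattern, or 0.0457%. Txnip also held a FoxO-type site, found in 3.17% of entries, and 1 relaxed glucocorticoid response element (ACANNNTGT), found in 5.84%. A match describes letters and does not show that a factor binds there.

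Arrdc4 held a single E-box, a motif in 6.02% of entries, and 6 CCAAT boxes. At least 6 CCAAT boxes were found in 0.0578% of entries and at least 1 in 33.8%. Arrdc2 held 3 CCAAT boxes and Txnip 2. Arrdc3 has 3 entries in the table, 2 of which overlap and hold the same CCAAT box, and the one at the start of the gene is printed. The 4 printed windows had a GC content of 66.8% for Txnip, 58.0% for Arrdc4, 76.0% for Arrdc3 and 60.4% for Arrdc2, against a median of 52.4% over all entries. Arrdc1 had an entry without any of these motifs, but that entry does not begin at the start of the gene, unlike the 4 printed ones. Arrb1 and Arrb2 are named only.

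**Figure D1:**
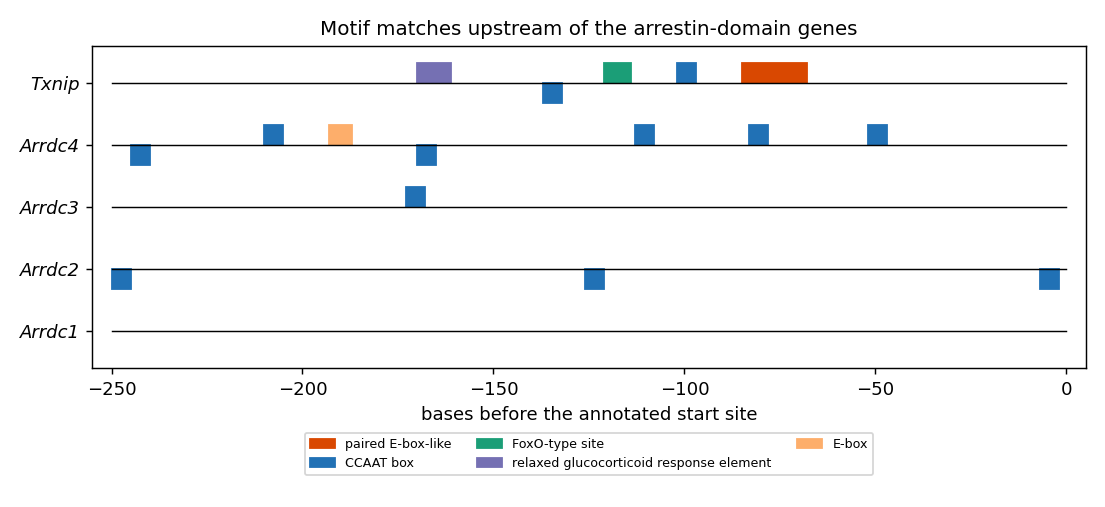
Motif matches in the 250 bases before the annotated start site of 5 alpha-arrestin genes, with the x axis in bases before the start; blocks above a line lie on the strand of the gene and blocks below it on the other strand. The paired E-box-like motif appears only on the Txnip line, and the Arrdc4 line carries 6 CCAAT boxes. The start used for Arrdc1 is not the start of the gene, unlike those of the others.

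Besides Txnip, 7 genes with the paired motif passed the expression filter. Their KO minus WT differences are not set against that of Txnip, which was chosen with its difference known. Whether the motif has a part in any of these differences was not tested. The folliculin partner Fnip1 was at -0.33 at 2 months and -0.38 at 8 months (limma adjusted p 0.019). The others, among them the ankyrin protein Fem1b, the NF-kB subunit Nfkb2 and the histone chaperone Rbbp4, did not pass, and Nfkb2 was at -0.21 and 0.06. These genes were named after their values were seen.

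Arrdc3, Txnip and Arrdc2 were lower in KO than in WT at both ages, whereas Arrdc4, Arrb1 and Arrb2 lay close to WT. At 2 months 3 of the 6 members past the filter were at least 1.5-fold lower and 0 were higher, where 2.39% of all genes tested were lower and 3.98% higher. At 8 months the same 3 were lower, against 1.93% of all genes that were lower and 2.41% that were higher. At both ages together the shares over all genes were 1.06% lower and 1.78% higher. The split over all genes depends on scaling: 476 were higher and 286 lower at 2 months as deposited, but 352 and 438 under median centring. At 8 months the counts were 288 and 231 as deposited and 245 and 260 under median centring. The members were chosen on this contrast, so nothing is read from their count. The differences at the 2 ages share no array, and the median over all genes tested was 0.01 at 2 months and 0.00 at 8 months.

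**Figure D2:**
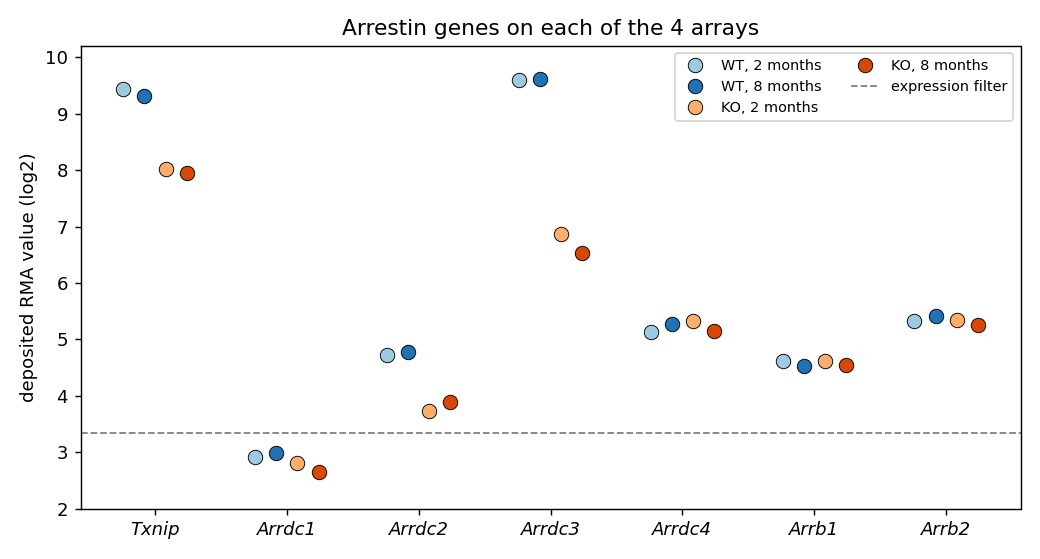
Deposited RMA values (log2) of the 7 arrestin genes on the 4 arrays, 1 point per array, with the expression filter of 3.34 as a dashed line. The KO points of Txnip, Arrdc2 and Arrdc3 lie below both WT points, as they do for 25.7% of all genes. Those of Arrdc4, Arrb1 and Arrb2 overlap WT, and Arrdc1 lies below the filter. Heights of different genes come from different probes and are not comparable.

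Arrdc3, an alpha-arrestin known for routing beta-adrenergic receptors to degradation and for limiting energy expenditure, differed most of the members. It read 9.60 and 9.61 in WT at 2 and 8 months and 6.86 and 6.54 in KO. The WT arrays were nearly equal, both KO arrays were far below them, and the lowest WT and highest KO value were 2.74 apart. The genotype difference (KO minus WT) was -2.74 in the younger and -3.08 in the older pools, which is 6.67-fold and 8.43-fold lower. Among the 11963 genes it was the 4th lowest at 2 months and the 5th lowest at 8 months. By the mean of both ages only the glutathione transferase Gstp3, at -4.31, and the metallothionein Mt2, at -3.40, were lower than its -2.91.

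Txnip read 9.44 and 9.32 in WT at 2 and 8 months and 8.01 and 7.94 in KO. The gap between the lowest WT and highest KO value was 1.30. The genotype difference was -1.43 in the younger and -1.37 in the older pools, so the KO level was 37.0% and 38.6% of WT. It ranked 19th and 25th from the lowest of all genes.

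Arrdc2, a less studied alpha-arrestin, read 4.72 and 4.78 in WT and 3.73 and 3.89 in KO. The genotypes did not overlap, with 0.83 between the nearest values. Of all genes, 25.7% likewise had both KO arrays below both WT arrays. The genotype difference was -0.99 at the younger and -0.89 at the older age, or 1.99-fold and 1.86-fold lower, which placed it 51st and 82nd from the lowest. Its KO values stand near the expression filter, where RMA compresses differences.

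Arrdc4, which like Txnip responds to glucose and restrains its uptake, was not lower in KO at both ages as Txnip was. Its 4-array mean was 5.22, and how far RMA compressed its differences was not tested. It read 5.14 and 5.27 in WT and 5.33 and 5.15 in KO. The KO values lie inside or next to the WT range, the highest and the lowest of the 4 arrays being KO at 2 months and WT at 2 months. The genotype difference was 0.19 at the younger and -0.12 at the older age, and its whole span over the 4 arrays was 0.19.

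Arrdc1, which drives the budding of small vesicles from the plasma membrane, stayed below the filter with 2.91 and 2.99 in WT and 2.81 and 2.66 in KO. Its KO minus WT values of -0.10 and -0.33 come from a dim probe set and were not compared with other genes.

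Neither beta-arrestin separated the genotypes. Arrb1 read 4.62 and 4.52 in WT and 4.62 and 4.54 in KO, with differences of 0.00 and 0.02. Arrb2, which is prominent in leukocytes, read 5.33 and 5.41 in WT and 5.34 and 5.25 in KO, with differences of 0.01 and -0.16. How far RMA compressed the differences of Arrb1 and Arrb2, with 4-array means of 4.58 and 5.33, was not tested. Both KO arrays lay below both WT arrays for 25.7% of all genes and above them for 29.1%. Separation, as in Txnip, Arrdc2 and Arrdc3, and overlap, as in Arrdc4, Arrb1 and Arrb2, are therefore both common.

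**Figure D3:**
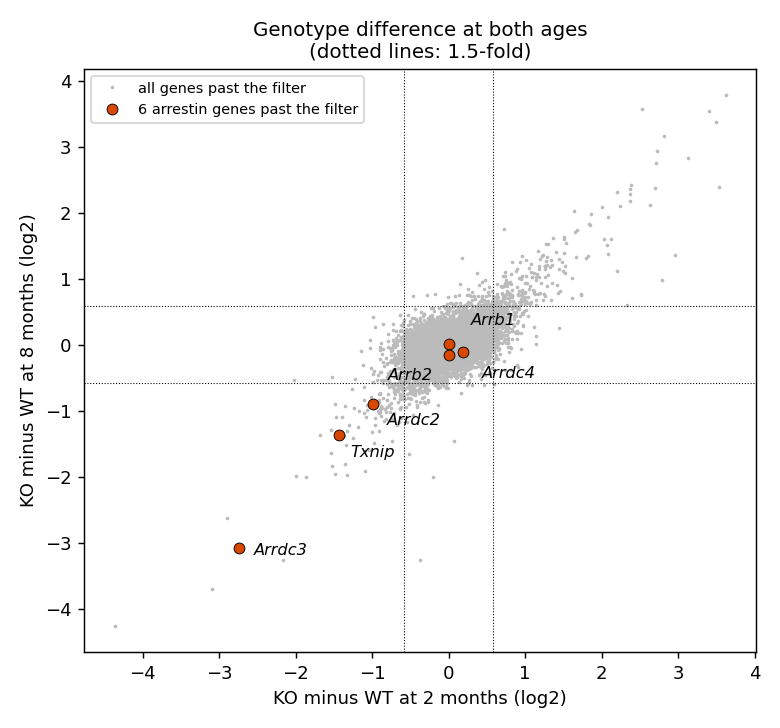
KO minus WT (log2) at 2 months on the x axis and at 8 months on the y axis for 11963 genes (grey) and the 6 arrestin genes past the filter (orange), with dotted lines at 1.5-fold. Arrdc3, Txnip and Arrdc2 lie in the lower left, and Arrdc4, Arrb1 and Arrb2 lie within the central cloud.

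No member passed a test for age, a contrast that was not used to choose them. The test was the additive limma model of genotype and age over the 4 arrays, which leaves each gene 1 residual degree of freedom. The 6 members past the filter each had an adjusted p of 1, and 0 had an unadjusted p under 0.05. Over all genes 1 passed, or 0.00836%, with 431 at an unadjusted p under 0.05. The gene that passed was the lysozyme Lyz2, which fell with age by 0.80 (SE 0.10, limma adjusted p 0.039), a call lost under median centring and without the filter or the intensity trend.

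The mean difference of 8 minus 2 months was -0.10 for Txnip (95% interval -0.27 to 0.07) and -0.16 for Arrdc3 (-0.36 to 0.04). For Arrdc2 it was 0.11 (-0.17 to 0.40) and for Arrdc4 -0.03 (-0.30 to 0.24). For Arrb1 it was -0.09 (-0.37 to 0.18) and for Arrb2 0.00 (-0.26 to 0.25). These intervals weigh the age effect against departure from additivity, moderated by a prior taken from all genes. They do not include the spread between animals. They leave room for age effects of up to about the size of their bounds.

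Within a genotype no member reached 1.5-fold between the ages. The members past the filter ranged from -0.13 for Txnip to 0.13 for Arrdc4 in WT and from -0.33 for Arrdc3 to 0.16 for Arrdc2 in KO. Of all genes, 0.652% reached 1.5-fold in WT and 0.652% in KO. Arrdc3 was thus level with age in WT (0.01) and 0.33 lower at 8 months in KO, a contrast for which single arrays allow no test.

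None of the other measured genes with an arrestin fold passed for genotype. The retromer subunits Vps26a, Vps26b and Vps26c, which carry an arrestin fold and return receptors from endosomes, had mean differences of 0.09, 0.14 and 0.02, and 0 of the 3 passed (limma adjusted p 0.43 to 0.93). The retinal arrestins Sag and Arr3 and the alpha-arrestin Arrdc5 were below the filter. For all lists below, the same model called 6.81% of all genes as higher and 4.26% as lower in KO, or 11.1% in all. This split too depends on scaling, with 815 non-member genes higher and 507 lower as deposited, 666 and 786 under median centring and 904 and 866 under renewed quantile normalization. Without the expression filter 14 of the 45 called genes of these lists and of the marker lists no longer passed, among them Nedd4l, Srxn1, Prdx1, Fgf21, Slc2a1, Slc2a5, Gsdmd, Col1a1 and Col3a1.

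The lists of the machinery with which arrestins work were not compared with the share called over all genes. Of 10 Nedd4 family ligases and adaptors past the filter, 1 rose and 0 fell, with list medians of -0.03 at 2 months and -0.09 at 8 months. The ligase that rose was Nedd4l, at 0.41 and 0.35 (adjusted p 0.016). Itch, a ligase that binds Txnip, was at -0.08 and -0.32, and Smurf1 at 0.33 and 0.27, without passing, though Itch passed under renewed quantile normalization (adjusted p 0.048). Of 10 genes of the ESCRT machinery, which Arrdc1 uses to bud vesicles, 0 rose and 0 fell, and the extremes were Mvb12a at -0.11 and -0.04 and Vps4a at 0.31 and 0.04. Of 8 clathrin and AP2 adaptor genes, partners of the beta-arrestins, 0 rose and 0 fell, and the median was 0.18 and 0.15.

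Receptors and kinases upstream of the beta-arrestins moved in both directions. Of 7 genes past the filter 2 rose and 1 fell, and their medians were 0.07 and -0.05. The receptor kinase Grk3 rose, at 0.63 and 0.68 (adjusted p 0.0056), and so did the vasopressin receptor Avpr1a, at 0.54 and 0.59. The glucagon receptor Gcgr fell, at -0.58 and -0.56 (adjusted p 0.00045). The beta-adrenergic receptors, which are targets of Arrdc3, were not analysed here.

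Among the partners of Txnip in redox control 2 genes passed. Of 16 thioredoxin and glutaredoxin genes 2 rose and 0 fell. The list medians were 0.18 at 2 months and -0.09 at 8 months. The sulfiredoxin Srxn1 rose, at 0.44 and 0.31 (adjusted p 0.023). The peroxiredoxin Prdx1 rose at 0.56 and 0.11 (adjusted p 0.049), a call lost under median centring (adjusted p 0.055). The mitochondrial glutaredoxin Glrx5 was at -0.26 and -0.19 (adjusted p 0.096), and fell under median centring (adjusted p 0.025), as did the methionine sulfoxide reductase Msrb1 (adjusted p 0.041).

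The list of the Mlx factors and their glucose-responsive targets, among which Txnip is known, had 19 genes past the filter, of which 9 rose and 2 fell. The medians were 0.28 and 0.27. The factors Mlx, Mlxip (MondoA) and Mlxipl (ChREBP) are in this count and did not pass, with Mlxipl at -0.21 and -0.17. Fatty acid synthase (Fasn) rose by 1.05 and 1.17 (adjusted p 1.2e-06). Thrsp, a nuclear protein that promotes lipogenesis, rose by 0.75 and 0.97. The carboxylase Acacb and the hepatokine Fgf21 fell, with -0.58 and -0.79, and -0.53 and -0.40. Many of these genes also answer to insulin and SREBP factors, so the list does not isolate the Mlx factors.

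Of 6 glucose transporters past the filter, which include cargo of Txnip, 0 rose and 2 fell, and their medians were -0.09 and -0.15. The fructose transporter Slc2a5 fell, at -0.62 and -0.42 (adjusted p 0.017), and the widely expressed Slc2a1 at -0.46 and -0.32 (adjusted p 0.036). Slc2a2, the main transporter of hepatocytes, was at -0.01 and 0.13. Of 3 inflammasome genes past the filter, the cytokine Il1b rose, at 0.96 and 1.05, the pore-forming Gsdmd fell, at -0.37 and -0.42, and Il18 did not pass, at -0.11 and -0.56. Nlrp3, the sensor that Txnip binds, was below the filter.

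Genes induced by glucocorticoids, hormones that also induce Txnip, split. Of 17 past the filter 3 rose, 6 fell and 8 did not pass. The list medians were -0.03 and -0.24. Mt2, at -3.09 and -3.71, and Fkbp5, a cochaperone of the receptor, at -2.17 and -3.26, fell most. The phosphatase Dusp1 rose, at 0.69 and 0.78, as did the lipocalin Lcn2, at 1.12 and 1.08. Of 16 FoxO targets and insulin-repressed genes 3 rose and 2 fell, and their medians were 0.15 and -0.01. Irs2, an adaptor of the insulin receptor, rose, at 0.96 and 0.83, G6pc, the last enzyme of glucose release, at 0.79 and 0.62, and the sestrin Sesn1 fell, at -0.43 and -0.71.

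**Figure D4:**
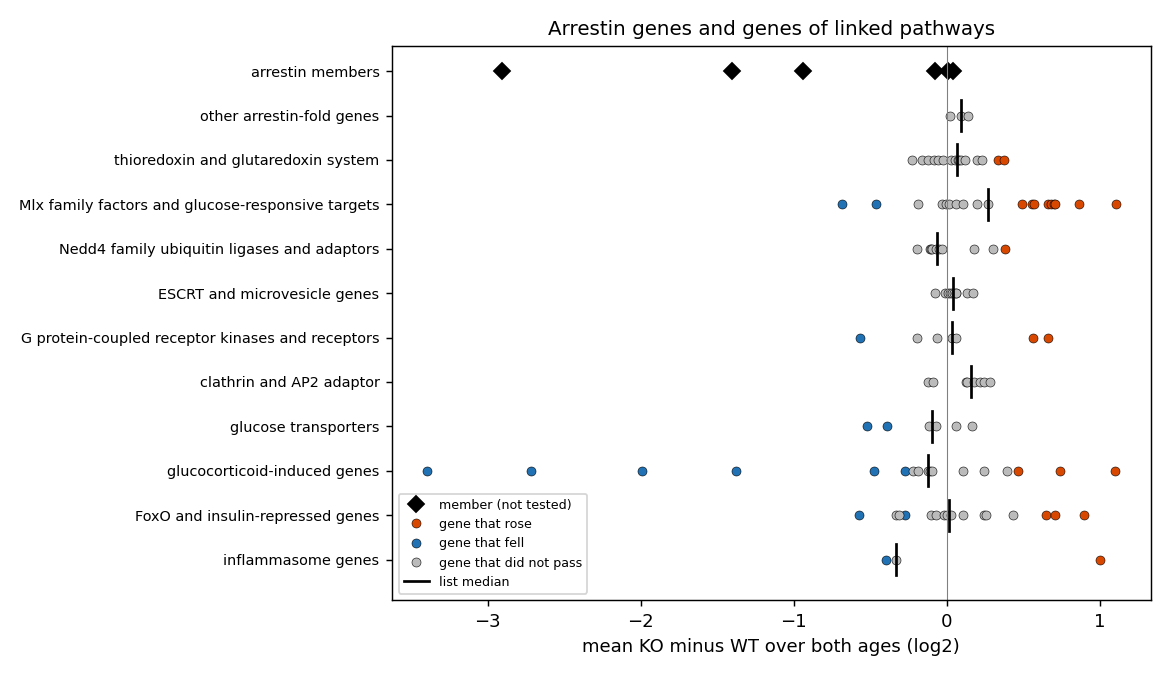
Mean KO minus WT over both ages (log2) for the 6 arrestin genes past the filter (diamonds, not tested) and for each gene of 11 linked lists, coloured by its call in the additive limma model, with list medians as bars. The glucocorticoid-induced list holds the lowest genes beside Arrdc3, and the Mlx list lies mostly to the right of 0.

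The genes whose profile over the 4 arrays was closest to a member were found by the root mean square distance between values centred on each gene's mean. For Arrdc3 they were the G protein regulator Rgs16 at a distance of 0.17, Mt2 at 0.28 and Fkbp5 at 0.29. For Txnip they were Osgin1, an oxidative stress-induced gene, at 0.03, the lipase inhibitor Angptl4 at 0.07 and Tmem184c at 0.07. For Arrdc2 they were the pro-apoptotic Bmf at 0.04, Abhd1 at 0.04 and the mitochondrial carrier Slc25a47 at 0.07. With 4 arrays this likeness mostly ranks genes by the size of the genotype difference. Osgin1 differed by -1.46 and -1.35 at 2 and 8 months, and Rgs16 read 8.70 and 8.45 in WT and 5.80 and 5.82 in KO.

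**Figure D5:**
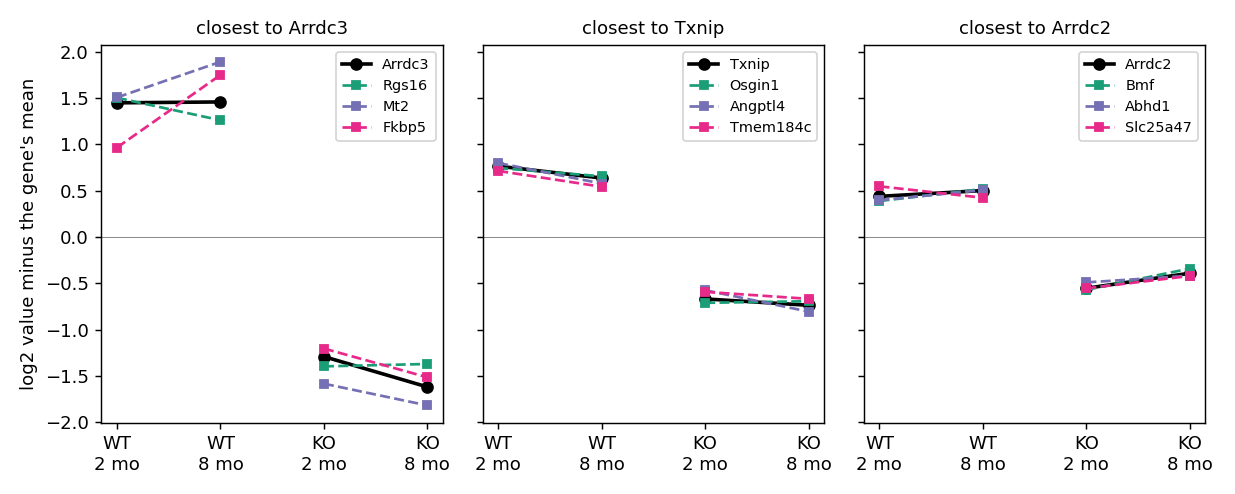
Log2 values minus each gene's mean over the 4 arrays for Arrdc3, Txnip and Arrdc2 (black) and the 3 genes closest to each (coloured), with 1 point per array and lines joining the 2 ages of a genotype. The neighbours of Txnip and Arrdc2 nearly overlie them, and those of Arrdc3 differ more between the ages.

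Markers of other cell types also differed between the labels, and in bulk liver fewer cells of a type and less RNA per cell cannot be told apart. Of 8 stellate and fibroblast markers 4 fell, namely the smooth muscle actin Acta2, Vim, Col1a1 and Col3a1. Acta2 was at -1.86 and -2.01 at 2 and 8 months. Vim was at -1.23 and -0.52, Col1a1 at -0.81 and -0.30 and Col3a1 at -0.75 and -0.24. Vim, Col1a1 and Col3a1 thus did not reach 1.5-fold at 8 months. The calls of Col1a1 and Col3a1 were lost without the filter (adjusted p 0.075 and 0.11) and without the intensity trend (adjusted p 0.0502 and 0.073). The 8 markers' summed linear level was 1150 and 1020 in WT and 975 and 939 in KO at 2 and 8 months. Of 9 Kupffer cell markers past the filter 3 rose. Together with Marco, which was below the filter, these markers had sums of 414 and 360 in WT and 505 and 469 in KO. Of 3 erythroid markers 2 rose, with sums of 208 and 184 against 331 and 297. Of 4 cholangiocyte markers 1 fell and Epcam was below the filter. Endothelial markers had 1 of 8 that rose, and 0 of 6 leukocyte markers and 0 of 3 adipose and muscle markers passed. The hepatocyte markers summed to 31200 and 32400 in WT and 31300 and 30300 in KO, a sum carried by the brightest probe sets. The part of these cells in the values of Arrdc3, Txnip and Arrdc2 was not tested.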

How the data were processed

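The authors deposited log2 values per probe set. Per the submitters' processing notes these came from RMA, run in version 1.0v of Affymetrix Expression Console. RMA corrects background, quantile normalizes arrays and summarises probes, which compresses dim differences. The table does not state the log base, taken here as that of RMA. The sources used here name no genome build or probe annotation. Values spanned 0.89 to 13.3. Arrays have no read depth, and their number limits the precision.

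Of 35556 probe sets, 21789 had 1 gene symbol, 1621 had several and 12146 were not listed in the platform table, and only the first were used. Probe sets of a gene were averaged. Genes with a mean above the 40th percentile were fitted with an additive model of genotype and age in limma 3.58.1 (R 4.3.3), with eBayes, an intensity trend (prior of 11.3 degrees of freedom) and Benjamini-Hochberg adjustment over 11963 genes at 0.05. "Rose" and "fell" are used only for genes that passed. With 1 pool per group the p-values do not measure spread between animals. Their error term joins a gene's departure from additivity, with 1 degree of freedom, to the larger prior taken from all genes. Tested on 10 simulated sets of 11963 genes, the age effect recovered 97 to 100% of 2-fold and 41 to 89% of 1.5-fold changes. False genes made up 0.70 to 24.7% of the calls. The simulated noise was independent and scaled to the median moderated spread, without intensity trend, genotype effect or spread between animals. These rates therefore do not give the power to see age effects in real livers.

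The members, lists and motifs were chosen with earlier results of these data known. Named genes are the members and genes from the 2 highest and 2 lowest of each linked list, except the clathrin and AP2 list. Those of the 2 highest and 2 lowest left unnamed did not pass for genotype. The 3 genes closest in profile to each member that spans at least 1 log2 unit are also named. Sirt6, the lowest genes beside a member's rank, Lyz2, marker genes and genes with the paired motif are named besides, the last 3 kinds after their values were seen. The Mlx factors and some list genes below the filter are named as well. No genotype p-value is given for a member, since the members were chosen on that contrast. Promoter letters come from RefSeq (GRCm38.p6), matched by symbol for 5 of 7 members.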

Additional observations from a re-analysis of the deposited data

Results flagged for a closer look

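In 4 members the difference between the ages had opposite signs in WT and KO, a difference that was not tested, since each group is a single array. The KO minus WT difference at 8 months less that at 2 months was -0.34 for Arrdc3, -0.31 for Arrdc4, -0.23 for the dim Arrdc1 and -0.16 for Arrb2. In Arrdc4 and Arrb2 the genotype difference also changed sign between the ages. For Arrdc3 this is small beside a genotype difference of -2.91.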

How the results depend on the processing

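Median centring, cyclic loess and renewed quantile normalization kept the direction and side of 1.5-fold of the genotype differences of Arrdc3, Txnip and Arrdc2. Median centring moved the median over all genes at 2 months only from 0.01 to -0.06, so differences this large could hardly change side. No member passed for age under these settings. Non-member genes called for genotype numbered 1322, 749 without the filter and 843 without the intensity trend. Genes called for age numbered 1, and 0 under median centring, without the filter and without the trend, 2 with the brightest probe set, and 3 under cyclic loess and under quantile normalization. Without the filter 120 genes, not 78, were 1.5-fold apart by age in KO. At 2-fold in place of 1.5-fold, 166 genes remained of 762 for genotype at 2 months, 150 of 519 at 8 months and 110 of 340 at both. By age, 15 of 78 remained in WT, 1 of 78 in KO and 0 of 2 in both. Of 45 list genes called for genotype, 14 were lost without the filter and 9 without the trend. Median centring lost Prdx1 and the Kupffer marker Timd4 (adjusted p 0.084). No paired analysis was possible because the labels number no replicates and each group has 1 array, and age was a term of the model. Dim probe sets such as those of Arrdc1, Arrdc2 and Arrb1 limit how large a difference RMA can show.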
